A study of Homo sapiens with 12 samples.

Results

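Long intergenic non-coding RNA (lincRNA) genes that were expressed in 2 human oesophageal squamous cell carcinoma lines, KYSE180 and KYSE150, are described here across changes in the level of CDCA7. There were 326 such genes among the 7629 lincRNA genes of a table of 58735 genes. They were chosen by their measured level, a mean of at least 1 FPKM, a read number scaled to gene length and library depth, over 12 libraries. Of 335 lincRNA genes at that level, 9 were left out by name: MALAT1, NEAT1, GAS5, ZFAS1, DANCR, EPB41L4A-AS1 and genes named SNHG. Because the level chose the genes, their levels are a description and carry no test. KYSE180 was measured as wild-type cells, labelled as the native control, and with CDCA7 overexpression. KYSE150 was measured as the wild-type native control and with shCDCA7, a short hairpin RNA against CDCA7. Each of the 4 groups had 3 libraries. All cells were grown in RPMI-1640 medium with fetal bovine serum. The labels do not say which promoter drives CDCA7, whether a manipulated population is 1 clone, or whether replicates were separate cultures. P-values therefore describe only how far these libraries scatter, part of which may be technical. The study asks whether CDCA7 acts on the epithelial-mesenchymal transition driven by TGF-β.

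LincRNAs are made by RNA polymerase II outside protein-coding genes, and most are capped, often spliced and not translated. Many start at the promoter of a protein-coding gene and run the other way, and many are kept low by early termination and by the nuclear exosome, which degrades RNA in the nucleus. Some are known in squamous carcinoma as enhancer-driven transcripts, and others are the precursors of microRNAs, short RNAs that repress messenger RNAs through a seed. CDCA7 is a nuclear partner of the chromatin remodeller HELLS.

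Libraries held between 16.3 M and 19.6 M assigned reads, and lincRNAs of the set took between 0.188% and 0.274% of them. CDCA7 itself moved as labelled: it was at 24, 18.2 and 17.4 FPKM in KYSE180 controls and at 44.6, 59.1 and 57.9 with overexpression, and at 27.4, 25.6 and 25.6 FPKM in KYSE150 controls and 9.24, 10.1 and 8.83 with shCDCA7. Of the genes in the study's title, SMAD4 was at 4.07 ± 0.274 and 4.97 ± 0.488 FPKM in KYSE180 (adjusted p = 0.257 in the limma fit) and rose from 0.625 ± 0.0886 to 0.984 ± 0.0415 in KYSE150 (adjusted p = 0.0358). SMAD7 was at 0.706 ± 0.166 and 1.27 ± 0.266 FPKM in KYSE180 (adjusted p = 0.0764) and at 3.22 ± 0.118 and 3.32 ± 1.26 in KYSE150 (adjusted p = 0.979). The squamous markers KRT5, KRT14, TP63 and KRT6A were detected in all 12 libraries, and the whole list of squamous epithelial markers summed to 1382 to 3057 FPKM in KYSE180 controls and 3295 to 3817 with overexpression, and to 269 to 280 FPKM in KYSE150 controls and 403 to 428 with shCDCA7, with no overlap in either line. In KYSE150 the sum was mostly KRT5, whose mean went from 210 FPKM in controls to 332 with shCDCA7. TP63 went from 24.3 to 36.9 and KRT14 from 27.6 to 32.2, while KRT6A went the other way, from 11.7 to 10.7. Markers of fibroblasts summed to at most 5.47 FPKM, of leukocytes to at most 0.712 and of endothelial cells to at most 1.31, and LYZ was at 0 throughout. In KYSE150, shCDCA7 replicate 2 stood apart. Its mitochondrial genes took 11.2% of reads against 5.2% and 5.73% in the other shCDCA7 libraries and 4.03% to 4.15% in controls, and 179 lincRNAs of the set reached 1 FPKM there against 211 and 223. In KYSE180 the mitochondrial share was 4.76% to 6.38% in controls and 7.97% to 8.65% with overexpression. In both lines the mitochondrial share and the squamous marker sum thus moved with the manipulation, and their part in the results was not tested.

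Expression was spread over many weak genes. The median gene of the set was at 1.86 FPKM and 1050 bases long, with 49.4% G and C. Only 15 genes reached 10 FPKM, 30 lay between 5 and 10, 104 between 2 and 5, and 177 below 2. The 10 highest genes held 24.1% of the summed FPKM. Clone-based names were carried by 201 genes and LINC names by 68, so most have no described role. The level minimum cut through a dense range: AC135178.5 (1.0001 FPKM), AC005840.2 (1.01) and AC067838.1 (1.01) lay just inside, and AC079949.2 (0.995), AC010864.1 (0.992) and LINC00346 (0.985) just outside. At 1 FPKM a gene of median length rests on 14.4 to 22.5 reads per library, so single values near the minimum carry wide counting error.

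NORAD, which keeps PUMILIO proteins bound and protects chromosome number, had by far the highest mean over the 12 libraries (chr20:36045622-36050960, GRCh38, minus strand). It measured 65.7, 49.1 and 64.3 FPKM in KYSE180 controls, 66.1, 71.8 and 67.5 with overexpression, 92.4, 89.5 and 95.2 in KYSE150 controls, and 107, 125 and 118 with shCDCA7. All 6 KYSE150 libraries were above all 6 KYSE180 libraries. The next genes were largely those of 1 line. LINC00392 stood at 75.1, 45.3 and 86.4 FPKM in KYSE180 controls and was listed at 0 in all 6 KYSE150 libraries. SFTA1P, a non-coding transcript annotated as a surfactant-associated pseudogene, showed the mirror image, at 0, 0.261 and 0 FPKM in KYSE180 controls and 37.7, 40.1 and 35.9 in KYSE150 controls.

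**Figure D1:**
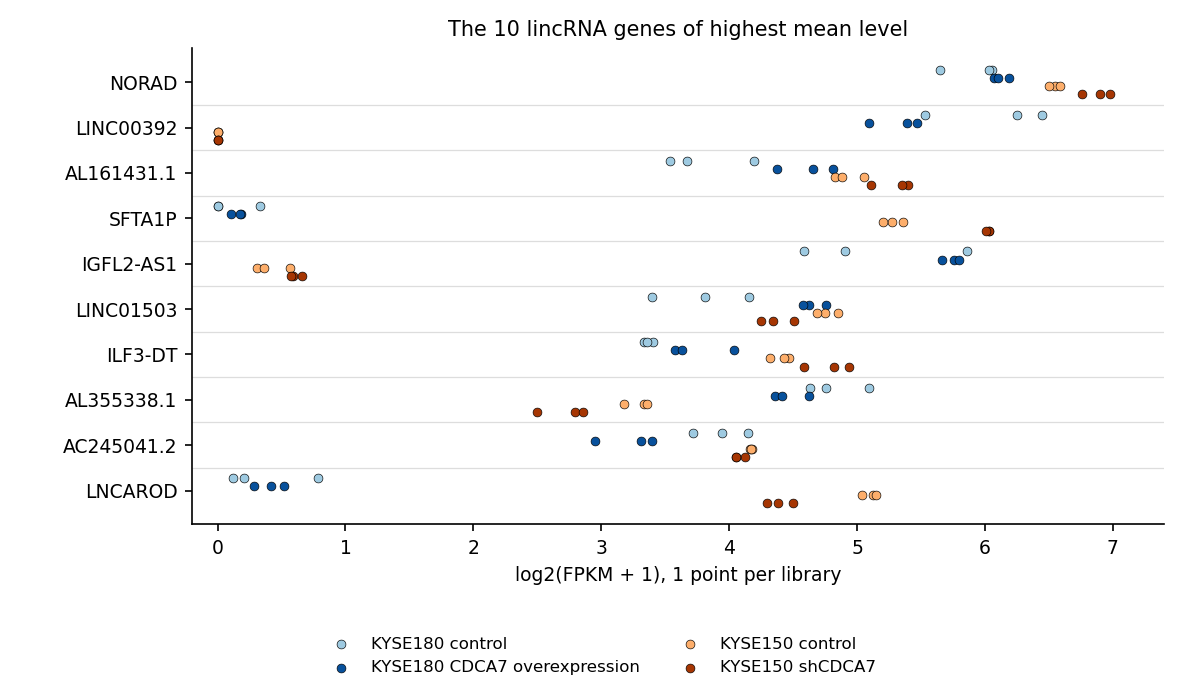
Levels of the 10 highest lincRNA genes. The horizontal axis is log2(FPKM + 1), each point is 1 library, and colours mark the 4 groups. LINC00392 and IGFL2-AS1 sit high in KYSE180 and near 0 in KYSE150, SFTA1P and LNCAROD do the reverse, and NORAD is high in all 12 libraries.

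The 2 native lines expressed different lincRNAs. Of the 326 genes, 166 had a mean of at least 1 FPKM over each line, 98 over KYSE180 alone and 62 over KYSE150 alone, and 119 reached it in every group. In limma-trend on log2(FPKM + 1), with p-values adjusted over all tested genes by Benjamini-Hochberg and called under 0.05, 191 of 319 tested lincRNAs differed between the controls, 99 higher in KYSE180 and 92 higher in KYSE150. That is 59.9%, beside 58.0% of all tested genes, and because the level in these libraries chose the genes, the count is a description. Of the genes at 1 FPKM over KYSE180 alone 75 of 96 were called, over KYSE150 alone 52 of 60, and over each line 64 of 163. Besides LINC00392, the largest differences in favour of KYSE180 were in IGFL2-AS1 (36.3 ± 18.1 against 0.334 ± 0.130 FPKM, mean ± SD, n = 3), AC005392.2 (14.9 ± 7.23 against 0), AC103702.2 (13.4 ± 2.20 against 0), AC007785.1 (17.1 ± 7.26 against 0.251 ± 0.0952) and AL033397.1 (12.2 ± 3.74 against 0.0206 ± 0.00706). In favour of KYSE150, besides SFTA1P, they were in LNCAROD (33.4 ± 1.41 against 0.321 ± 0.351 FPKM), LINC00958 (19.8 ± 0.221 against 0.0305 ± 0.0284), LINC02434 (11.2 ± 0.170 against 0.270 ± 0.177), LINC01508 (9.63 ± 0.123 against 0.148 ± 0.0997) and AL035446.1 (8.63 ± 0.199 against 0.0802 ± 0.0699). IGFL2-AS1 and AC007785.1 lie in the same stretch of chromosome 19, on opposite strands and with overlapping ends, so their reads cannot be told apart where they overlap without strand. UCA1, a lincRNA linked to bladder carcinoma and TGF-β signalling, was likewise a KYSE150 transcript at 6.02 ± 0.303 against 0.280 ± 0.0549 FPKM.

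The comparison in KYSE180 asks which lincRNAs change when CDCA7 is raised. Of 279 tested, 23 rose and 21 fell, so 15.8% were called beside 9.08% of all 15944 tested genes. The rises were 8.24% of those tested beside 4.65% of all genes, and the falls 7.53% beside 4.43%. The level that chose the genes was measured in these same libraries, so the shares are not independent of the choice. Of 20 tested genes at 1 FPKM with overexpression but not in controls, 9 were called, all higher. Of 115 tested genes at 1 FPKM in every group, 12 were called, or 10.4%. The median change was 0.04 on the log2(FPKM + 1) scale, beside -0.00 over all genes. Groups did not overlap for 36.2%, beside 35.1% of all genes. The calls rest on every library of the overexpression group: without replicate 1 or 3 limma called 0 lincRNAs of the set, when it called 1 and 8 genes of the whole table (84 and 82 lincRNAs were at an unadjusted p under 0.05), without replicate 2 it called 6, and without control replicate 1 it called 3, of 75 in the whole table. With all libraries 102 lincRNAs were at an unadjusted p under 0.05.

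On the log2(FPKM + 1) scale the largest rise was in AC007389.5, a 744-base lincRNA at chr2:65623272-65628424 (GRCh38). It stood at 0.391, 2.46 and 0.273 FPKM in controls and at 15.5, 12.1 and 9.99 with overexpression, with no overlap and control replicate 2 above the other controls. The rise of AC007389.5 was 12.04-fold in mean FPKM and 2.87 on the log2(FPKM + 1) scale (SE 0.37, adjusted p = 0.0114). AC007389.5 overlaps another annotated gene that is not protein-coding, so its reads may be shared. LINC01843 went from 0.946, 3.65 and 1.24 FPKM to 8.16, 7.86 and 9.66, again with control replicate 2 highest among the controls (1.81, SE 0.31, adjusted p = 0.0224). AC132807.2, which overlaps TBC1D5 on the other strand, went from 1.37, 2.70 and 3.59 FPKM to 7.48, 8.06 and 8.81 (1.41, SE 0.23, adjusted p = 0.0214). It was listed at 0 in every KYSE150 library.

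OLMALINC, first described as an oligodendrocyte lincRNA and lying downstream of the desaturase gene SCD, showed tight groups. It was at 1.84, 2.63 and 2.86 FPKM in controls and at 6.66, 7.77 and 7.02 with overexpression, a 2.92-fold rise (1.25, SE 0.15, adjusted p = 0.0101). SCD itself was at 203 ± 62.6 and 231 ± 20.7 FPKM and was not called (0.23, SE 0.24, adjusted p = 0.557). BLACAT1, named for bladder carcinoma, was nearly silent in controls, at 0, 0.629 and 0.237 FPKM, and stood at 1.8, 2.09 and 2.21 with overexpression (1.26, SE 0.17, adjusted p = 0.0134). It overlaps LEMD1 on the same strand, which was named after its values were seen and rose as well (0.146 ± 0.172 to 1.02 ± 0.274 FPKM, adjusted p = 0.0220), so the reads of this pair may be shared. Other rises included LINC02035 (3.76 ± 1.23 to 7.58 ± 1.11 FPKM, adjusted p = 0.0397), MAPKAPK5-AS1 (8.86 ± 1.16 to 16.4 ± 3.48, adjusted p = 0.0324), AL161431.1 (13.2 ± 3.60 to 23.7 ± 3.72, adjusted p = 0.0439) and AC067838.1 (0.654 ± 0.403 to 2.0 ± 0.690, adjusted p = 0.0475).

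Among the falls, AC121764.1 had the largest, from 11.4, 3.44 and 9.10 FPKM to 0.549, 1.49 and 1.35 (-1.98, SE 0.37, adjusted p = 0.0277). It lies downstream of ERC2 on the same strand and was listed at 0 throughout KYSE150. LINC01291 stood at 3.97, 2.86 and 2.44 FPKM in controls and at 0.711, 1.28 and 1.08 with overexpression (-1.01, SE 0.18, adjusted p = 0.0238). Both genes had non-overlapping groups. AC005993.1 went from 5.23 ± 1.71 to 2.11 ± 0.122 FPKM (adjusted p = 0.0373), AC093484.4 from 3.71 ± 1.32 to 1.38 ± 0.405 (adjusted p = 0.0428), AC005696.3 from 4.25 ± 0.885 to 1.84 ± 0.406 (adjusted p = 0.0303), LINC02542 from 1.32 ± 0.460 to 0.273 ± 0.294 (adjusted p = 0.0388) and AC007342.4 from 4.04 ± 0.872 to 1.95 ± 0.614 (adjusted p = 0.0475). AC245041.2, the called gene of the set with the highest control level among the falls, went from 14.4, 12.1 and 16.8 FPKM to 8.95, 9.52 and 6.73 (-0.72, SE 0.17, adjusted p = 0.0406). LINC00392 measured 41.0, 43.3 and 33.1 FPKM with overexpression, each below the 3 control values given above, without passing the test (-0.76, SE 0.24, adjusted p = 0.0800). In bulk RNA, fewer cells making a transcript and less of it per cell cannot be told apart, here or below.

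**Figure D2:**
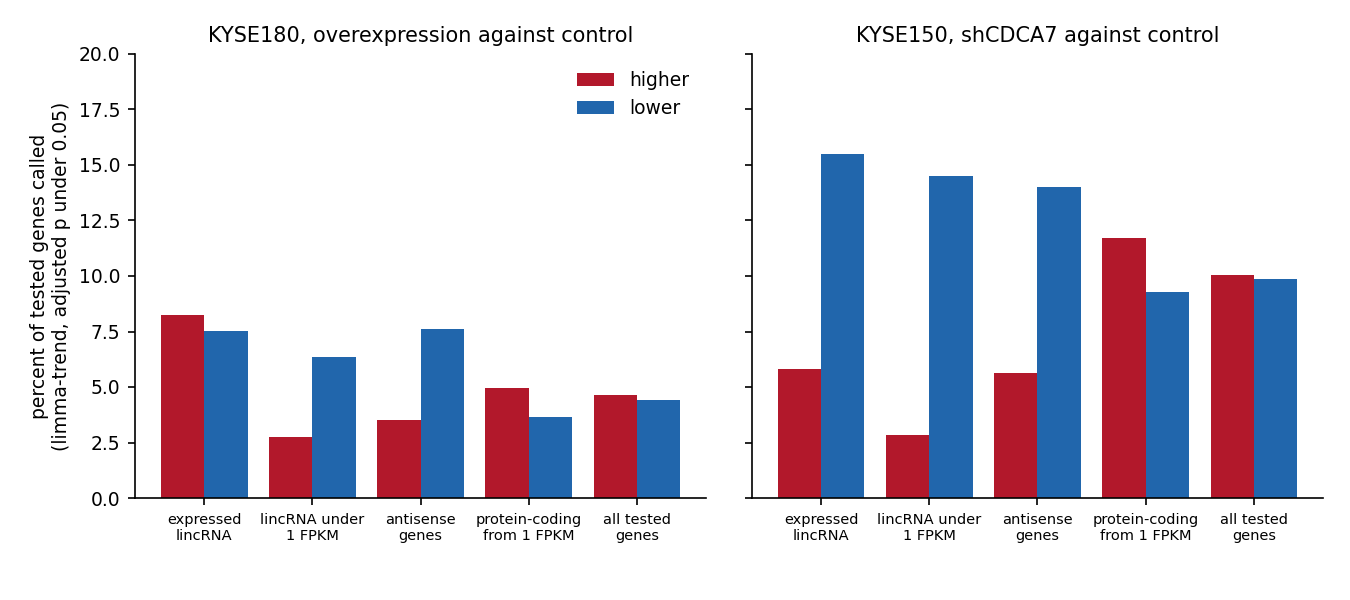
Percent of tested genes called higher (red) or lower (blue) in each line, for the expressed lincRNAs and 4 other sets of genes. In KYSE150 the expressed lincRNAs, lincRNAs under 1 FPKM and antisense genes have taller blue than red bars, while protein-coding genes from 1 FPKM have a taller red bar.

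The comparison in KYSE150 asks what changes when CDCA7 is lowered. Of 258 tested lincRNAs, 15 rose and 40 fell. The total, 21.3%, was near the 19.9% of all 14342 tested genes. The directions were unequal: 5.81% rose beside 10.0% of all genes, and 15.5% fell beside 9.86%. The median change was -0.07, beside 0.00 over all genes, and groups did not overlap for 38.0% beside 47.8%. Here too the level that chose the genes was measured in these libraries. Of 16 tested genes at 1 FPKM with shCDCA7 but not in controls, 4 were called, all higher. Protein-coding genes at the same level minimum rose in 11.7% and fell in 9.26% of cases, whereas lincRNAs under 1 FPKM fell in 41 of 283 and rose in 8. Scaling to library totals moves the median of all genes to -0.16 and gives 7 rises and 60 falls. Leaving out shCDCA7 replicate 2 raises the calls to 135 lincRNAs, 65 higher and 70 lower, in a table where 55.9% of all genes are then called, and 54 of the 55 calls keep their direction. Without shCDCA7 replicate 1 or 3 the count was 34 and 33, beside 12.4% and 10.8% of all genes. Without control replicate 1, 2 or 3 it was 18, 17 and 21, beside 3.85%, 2.93% and 4.91%, so calls were lost across the whole table.

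LINC01521 had the largest fall of the 40 on the log2(FPKM + 1) scale, while the ratio of mean FPKM was larger for genes including AC018553.1 and AC092171.3, described below. LINC01521 starts 545 bases from PATZ1, a zinc-finger regulator gene on the opposite strand, at chr22:31346777-31348719 (GRCh38). Its controls were at 3.51, 3.26 and 3.27 FPKM and its shCDCA7 libraries at 0.618, 0.602 and 0.673, a 5.30-fold fall (-1.41, SE 0.08, adjusted p = 0.00166). In KYSE180, LINC01521 was at 3.41, 2.80 and 2.79 FPKM in controls and at 1.72, 3.45 and 2.43 with overexpression, with overlapping groups. AC125807.2, downstream of the Hippo factor gene TEAD4, went from 6.52, 7.06 and 5.82 FPKM to 1.8, 2.14 and 1.93 (-1.33, SE 0.11, adjusted p = 0.00244). In KYSE180 it was at 4.44 ± 1.24 and 2.26 ± 0.293 FPKM, with an adjusted p of 0.0527.

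AL355001.2, which starts 222 bases from ZMYM5, went from 3.06, 2.55 and 2.64 FPKM to 0.690, 0.123 and 0.764 (-1.32, SE 0.18, adjusted p = 0.00721). AC019069.1, on the other strand within the hexokinase gene HK2, went from 2.70, 3.01 and 2.85 FPKM to 0.474, 0.987 and 0.256 (-1.32, SE 0.17, adjusted p = 0.00631). For both pairs the protein-coding partner moved the other way: ZMYM5 rose from 2.75 ± 0.0773 to 4.82 ± 0.328 FPKM (adjusted p = 0.00991) and HK2 from 24.5 ± 0.879 to 33.6 ± 2.14 (adjusted p = 0.0183), HK2 being named after its values were seen and its reads not separable from those of AC019069.1 without strand. Other falls were in AC116021.1 (5.08 ± 0.237 to 1.64 ± 0.226 FPKM, adjusted p = 0.00280), AC006452.1 (5.61 ± 0.342 to 2.08 ± 0.595, adjusted p = 0.00729) and AC012306.2 (3.68 ± 0.577 to 1.2 ± 0.459, adjusted p = 0.0108). Of these 7 genes, LINC01521, AC125807.2, AL355001.2, AC019069.1, AC116021.1 and AC006452.1 passed in all 15 alternatives run, and AC012306.2 in 13. Some of the more abundant genes fell as well: LNCAROD, known as an activating regulator of DKK1, from 31.8, 34.0 and 34.5 FPKM to 19.9, 21.7 and 18.6 (-0.71, SE 0.09, adjusted p = 0.00623), and AL355338.1, which starts 167 bases from PCCA, from 8.79 ± 0.643 to 5.60 ± 0.843 (adjusted p = 0.0281).

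The rises were fewer. SFTA1P went from 37.7, 40.1 and 35.9 FPKM in controls to 64.5, 64.6 and 63.3 with shCDCA7 (0.74, SE 0.08, adjusted p = 0.00413) with little spread within either group. LINC00662 went from 1.86, 1.76 and 1.65 FPKM to 3.18, 3.63 and 3.27 (0.66, SE 0.10, adjusted p = 0.00856). Neither gene had overlapping groups, and in KYSE180 the highest library of SFTA1P held 0.261 FPKM and that of LINC00662 0.0127. AC012615.1 went from 1.32 ± 0.148 to 5.49 ± 2.76 FPKM (adjusted p = 0.0377), LINC02434 from 11.2 ± 0.170 to 26.0 ± 8.79 (adjusted p = 0.0303), AC005261.1 from 3.30 ± 0.501 to 6.03 ± 0.589 (adjusted p = 0.0159) and AC026401.3 from 13.8 ± 0.555 to 22.8 ± 2.31 (adjusted p = 0.00872). In AC012615.1 and LINC02434, shCDCA7 replicate 2, at 2.36 and 16 FPKM, lay far below the other shCDCA7 libraries, at 6.52 and 7.58 and at 32.2 and 29.9. AC026401.3 overlaps NDE1 on the same strand, and NDE1, named after its values were seen, rose too (11.6 ± 0.848 to 18.3 ± 0.907 FPKM, adjusted p = 0.00919), so these reads may be shared. NORAD reached an adjusted p of 0.0497 (0.33, SE 0.09), a call held by 1 of its 15 alternatives.

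A group of lincRNAs changed the same way with CDCA7 overexpression in KYSE180 and with shCDCA7 in KYSE150. Both controls are native cells, and no group with a control construct is labelled. Delivery of a construct and the level of CDCA7 therefore cannot be told apart in either line. Of 220 tested in both lines, 16 were called in both, or 7.27%, beside 3.24% of all 13377 genes tested in both. They made up 45.7% of the 35 KYSE180 calls and 34.8% of the 46 KYSE150 calls among these genes. Of the 16, 6 rose in both lines, 9 fell in both, and only LINC01503 went in opposite directions. Over all genes, 410 of 433 genes called in both lines moved the same way. The comparisons share no library. Across the 220 lincRNAs the changes of the lines had a Pearson r of 0.456, beside 0.394 across all genes, where genes are not independent and no test is given. Without shCDCA7 replicate 2, 26 were called in both, 22 of them in the same direction.

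**Figure D3:**
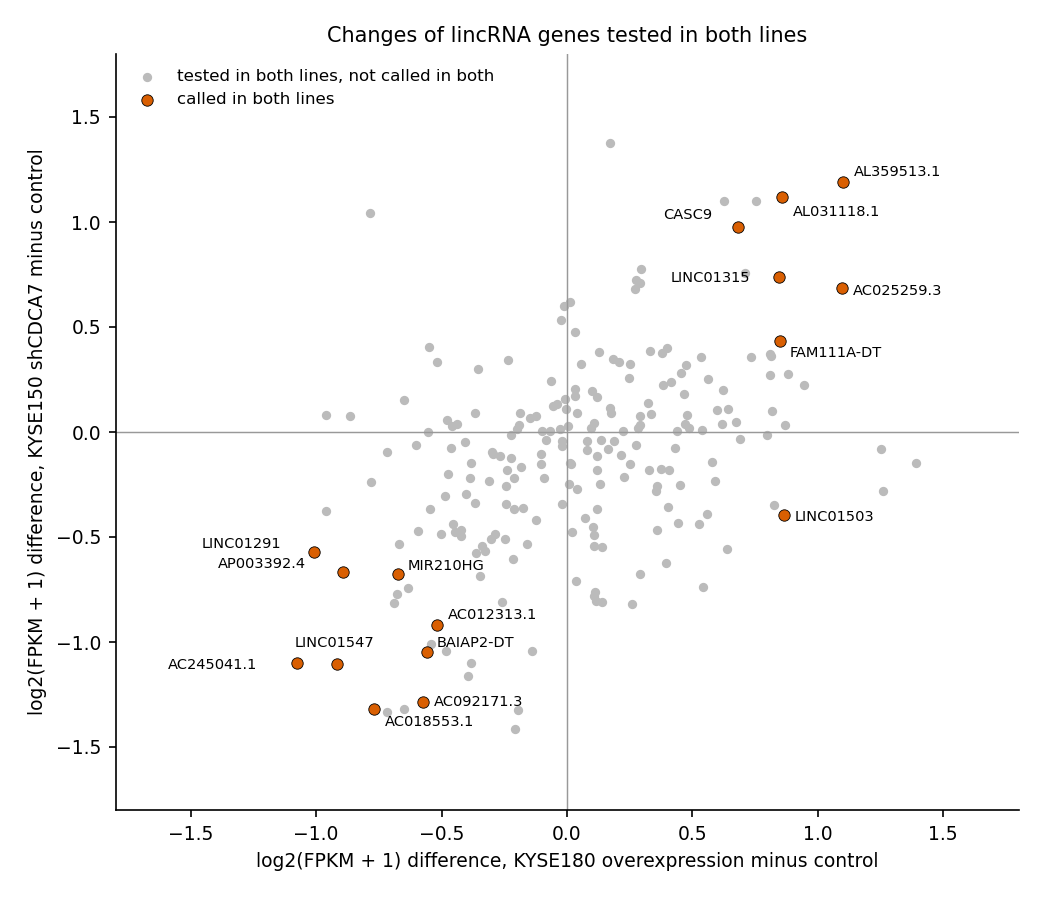
Changes of the 220 lincRNA genes tested in both lines. The horizontal axis is the log2(FPKM + 1) difference of KYSE180 overexpression minus control, the vertical axis that of KYSE150 shCDCA7 minus control. Orange points are the 16 genes called in both lines, 6 in the upper right, 9 in the lower left and LINC01503 in the lower right.

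The genes that fell in both lines included AC018553.1, near the developmental gene IRX3. It was at 2.04, 1.51 and 1.04 FPKM in KYSE180 controls and 0.297, 0.459 and 0.670 with overexpression (-0.77, SE 0.16, adjusted p = 0.0336). In KYSE150 it went from 2.89, 2.22 and 2.71 FPKM to 0.520, 0.301 and 0.507, a 5.88-fold fall (-1.32, SE 0.11, adjusted p = 0.00244). LINC01547, which starts 97 bases from FAM207A on the opposite strand, went from 2.61, 1.2 and 1.99 FPKM to 0.303, 0.756 and 0.531 in KYSE180 (-0.92, SE 0.20, adjusted p = 0.0336). In KYSE150 it went from 2.29, 2.34 and 2.75 FPKM to 0.810, 0.660 and 0.385 (-1.10, SE 0.12, adjusted p = 0.00450). Neither gene had overlapping groups in either line.

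AC092171.3, downstream of FBXL18, had little spread: 1.71, 1.54 and 1.61 FPKM against 0.653, 0.758 and 0.880 in KYSE180 (-0.57, SE 0.10, adjusted p = 0.0244), and 2.38, 2.54 and 2.75 against 0.525, 0.469 and 0.386 in KYSE150 (-1.29, SE 0.09, adjusted p = 0.00166). BAIAP2-DT, a divergent transcript of the actin regulator gene BAIAP2, was at 7.75 ± 0.353 and 4.98 ± 0.836 FPKM in KYSE180 (adjusted p = 0.0492) and at 2.92 ± 0.213 and 0.909 ± 0.270 in KYSE150 (adjusted p = 0.00516). BAIAP2 itself was at 8.87 ± 2.02 and 9.14 ± 0.883 FPKM in KYSE180 and at 4.76 ± 0.246 and 4.02 ± 0.632 in KYSE150. AC245041.1 went from 2.35 ± 0.916 to 0.584 ± 0.384 FPKM in KYSE180 (adjusted p = 0.0397) and from 17 ± 1.61 to 7.71 ± 3.05 in KYSE150 (adjusted p = 0.0239). AP003392.4, LINC01291, AC012313.1 and MIR210HG complete the group. LINC01291 in KYSE150 was at 0.880 ± 0.0460 and 0.266 ± 0.109 FPKM (adjusted p = 0.00702), and AC012313.1 went from 3.41 ± 0.260 to 2.08 ± 0.247 in KYSE180 (adjusted p = 0.0462) and from 6.19 ± 0.269 to 2.81 ± 0.376 in KYSE150 (adjusted p = 0.00588), where ZNF584, which it overlaps on the other strand, fell too (adjusted p = 0.0223). AP003392.4 went from 2.05, 1.89 and 1.89 FPKM to 0.493, 0.482 and 0.793 in KYSE180 (-0.89, SE 0.11, adjusted p = 0.0114) and from 2.24 ± 0.633 to 1.02 ± 0.187 in KYSE150 (adjusted p = 0.0308).

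Of the 6 genes that rose in both lines, AL359513.1 had the largest changes on the log2(FPKM + 1) scale, where the added 1 damps the weaker AL031118.1. AL359513.1 starts 98 bases from CKAP2, a mitotic spindle protein gene. It was at 0.418, 0.676 and 0.273 FPKM in KYSE180 controls and 2.89, 2.0 and 1.56 with overexpression (1.10, SE 0.18, adjusted p = 0.0192), and at 1.17, 1.29 and 1.89 FPKM in KYSE150 controls and 4.77, 3.15 and 6.13 with shCDCA7 (1.19, SE 0.22, adjusted p = 0.0160). CKAP2 rose from 23.7 ± 4.18 to 35.8 ± 2.48 FPKM in KYSE180 (adjusted p = 0.0499) and was at 30.3 ± 2.70 and 44.6 ± 13.7 in KYSE150 (adjusted p = 0.130). AL031118.1, beside the zinc-finger gene ZNF391, was at 0.0394, 0.0729 and 0.103 FPKM in KYSE180 controls, between 2 and 6 reads, and at 0.732, 1.23 and 0.900 with overexpression (0.86, SE 0.10, adjusted p = 0.00969). In KYSE150 it went from 0.886, 0.836 and 0.981 FPKM to 3.40, 2.45 and 3.62 (1.12, SE 0.13, adjusted p = 0.00509).

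AC025259.3 lies on the other strand within NR4A1, an immediate-early nuclear receptor gene. It went from 0.628 ± 0.5 to 2.37 ± 0.358 FPKM in KYSE180 (adjusted p = 0.0337) and from 0.578 ± 0.258 to 1.55 ± 0.527 in KYSE150 (adjusted p = 0.0409). NR4A1, named after its values were seen, went from 2.69 ± 1.47 to 7.28 ± 1.29 FPKM in KYSE180 (adjusted p = 0.0444) and was at 3.17 ± 0.438 and 7.84 ± 3.5 in KYSE150 (adjusted p = 0.0766). No source used here says whether reads were counted by strand, so reads of this pair cannot be told apart. LINC01315 rose from 0.828 ± 0.415 to 2.28 ± 0.722 FPKM (adjusted p = 0.0477) and from 0.929 ± 0.177 to 2.26 ± 0.688 (adjusted p = 0.0320). FAM111A-DT, which shares its start region with the antiviral and replication gene FAM111A, rose from 3.66 ± 1.15 to 7.22 ± 0.667 (adjusted p = 0.0428) and from 2.13 ± 0.0926 to 3.24 ± 0.339 (adjusted p = 0.0348), while FAM111A was at 10.0 ± 1.29 and 8.68 ± 0.477, and at 4.88 ± 0.168 and 3.84 ± 0.295.

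**Figure D4:**
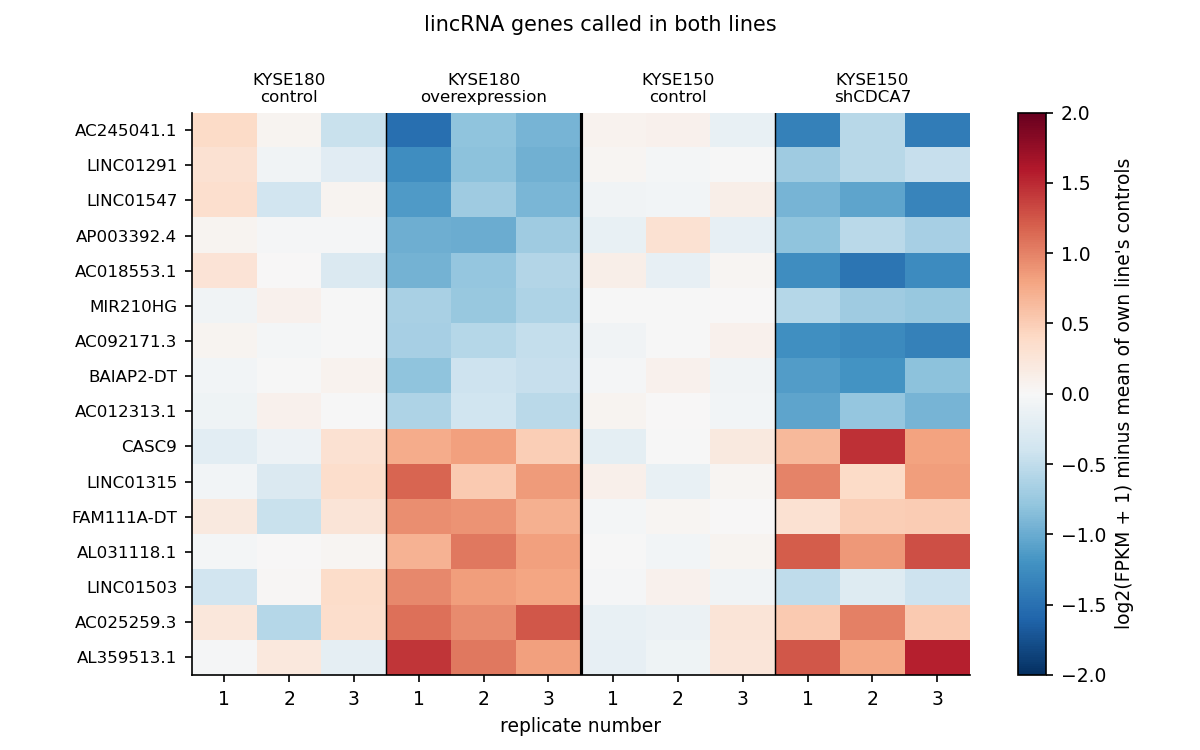
The 16 lincRNA genes called in both lines, by library. Colour is log2(FPKM + 1) minus the mean of the controls of the same line, columns are the 12 libraries by group and replicate number. The 9 lower genes are blue in all 6 manipulated libraries, and LINC01503 is red with overexpression and blue with shCDCA7.

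From a list of 7 squamous and epithelial lincRNAs, LINC01503 and CASC9 were in the set. Both were called in each line, where 9.08% and 19.9% of all tested genes were. LINC01503, known as a super-enhancer transcript of squamous carcinoma under TP63, lies at chr9:129332300-129359538 (GRCh38, plus strand). It stood at 9.53, 13 and 16.8 FPKM in KYSE180 controls and 26.0, 23.7 and 22.8 with overexpression (0.87, SE 0.19, adjusted p = 0.0351). In KYSE150 LINC01503 measured 25.8, 27.9 and 24.8 FPKM in controls and 18.1, 21.7 and 19.3 with shCDCA7 (-0.40, SE 0.10, adjusted p = 0.0402). It was the single gene of the 16 that rose where CDCA7 was raised and fell where it was lowered, and the change differed between the manipulations by 1.26 (adjusted p = 0.0123). CASC9, described in oesophageal carcinoma, rose in both: from 5.45, 5.96 and 8.23 FPKM to 11.5, 12.1 and 9.43 in KYSE180 (0.68, SE 0.17, adjusted p = 0.0469), and from 2.79, 3.28 and 3.97 to 5.80, 10.9 and 6.56 in KYSE150 (0.97, SE 0.23, adjusted p = 0.0322). Its shCDCA7 replicate 2 lay above the others. In the alternatives LINC01503 passed in 9 of 15 in KYSE180 and 6 of 15 in KYSE150, and CASC9 in 5 and 9.

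**Figure D5:**
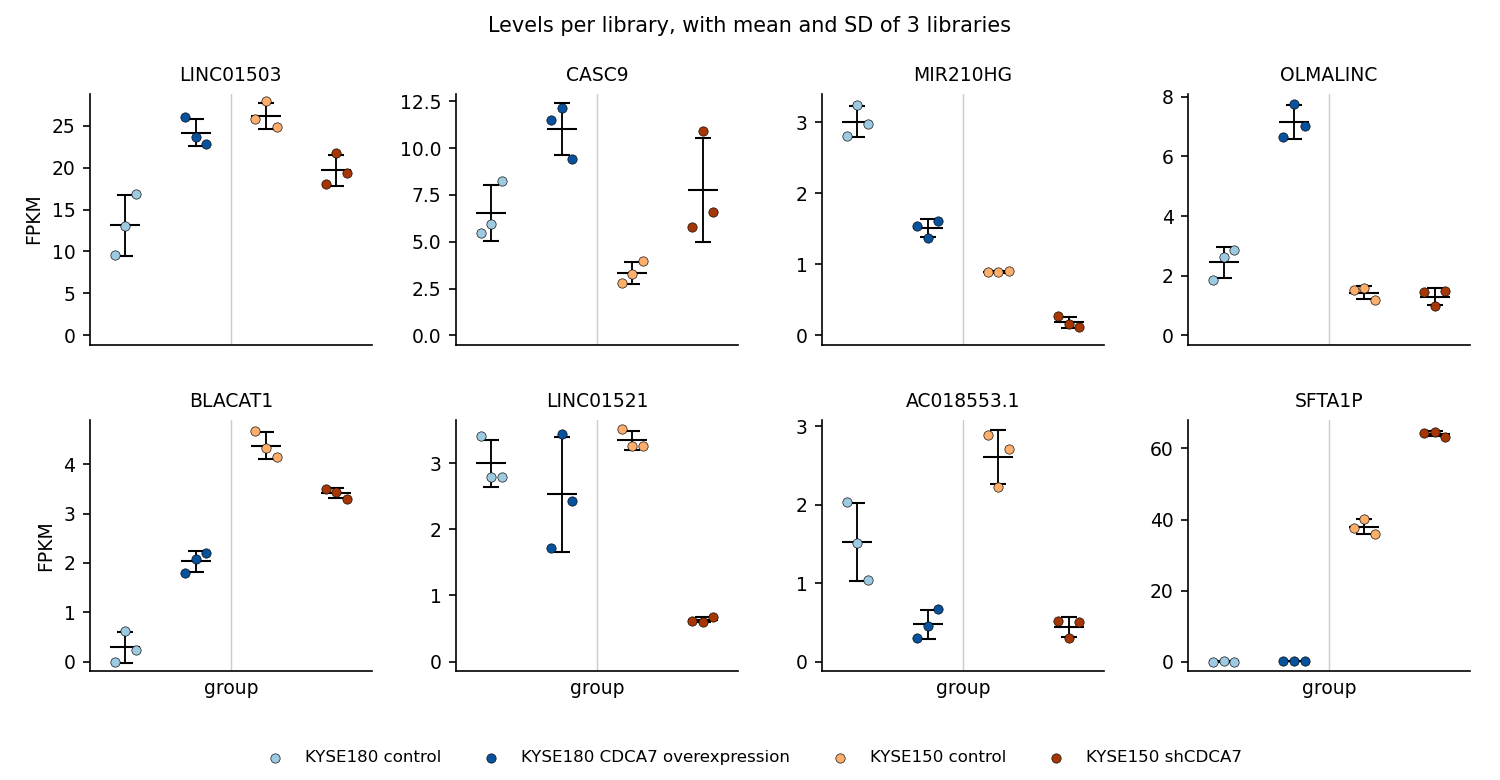
FPKM of 8 lincRNA genes in the 12 libraries. Points are libraries, coloured by group, and bars are the mean and SD of 3 libraries. LINC01503 is higher with overexpression and lower with shCDCA7, MIR210HG and AC018553.1 are lower in both manipulated groups, and OLMALINC and BLACAT1 are higher with overexpression, while LINC01521 is lower with shCDCA7.

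Both manipulations were compared directly by the difference of their changes. Of 319 tested lincRNAs, 22 differed, or 6.90% beside 5.57% of all 17088 tested genes. In 18 the KYSE180 change was the higher one, 5.64% beside 2.87% of all genes, and in 4 the lower one, 1.25% beside 2.70%. Of the 22, 13 were too weakly read in 1 line to be tested there. Their difference rests mainly on the change in the other line, and the weak values of the untested line enter it too. These shares are likewise not independent of the choice by level. Among genes at 1 FPKM over each line, 8 of 163 differed, or 4.91%, near the share of all genes. Line and manipulation cannot be told apart in this contrast. The largest differences were in AC007389.5 (2.81, adjusted p = 0.00871), BLACAT1 (1.54, adjusted p = 0.00382), LINC01843 (1.5, adjusted p = 0.0459), AC132807.2 (1.41, adjusted p = 0.0147, at 0 in KYSE150) and OLMALINC (1.33, adjusted p = 0.00599), followed by LINC01503. AC007389.5, LINC01843 and AC132807.2 were not tested in KYSE150 alone. BLACAT1 stood at 4.67, 4.33 and 4.14 FPKM in KYSE150 controls and at 3.51, 3.44 and 3.31 with shCDCA7 (-0.28, SE 0.10, adjusted p = 0.0912), a change that did not pass. OLMALINC was at 1.51, 1.58 and 1.19 FPKM and at 1.46, 0.970 and 1.47 there. The 4 lower differences were AC121764.1 (-1.98, adjusted p = 0.0258), LINC02434 (-1.42, adjusted p = 0.0239), SFTA1P (-0.70, adjusted p = 0.0284) and LINC00662 (-0.67, adjusted p = 0.00564), each expressed mainly in 1 line. The count of 22 was 12 without any 1 of the KYSE150 controls, 13 without overexpression replicate 3, 35 and 38 without KYSE180 control replicate 2 and 3, and 36 without shCDCA7 replicate 2. The share of all genes moved with it, to between 1.59% and 1.82%, 2.24%, 9.64% and 8.60%, and 9.03%. When the KYSE150 change is instead taken as control minus shCDCA7, so that both lines run from less to more CDCA7, 93 lincRNAs differed (36 higher, 57 lower), 29.2% beside 28.4% of all genes.

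MicroRNA host genes are lincRNAs whose transcript carries a hairpin that is cut out to give a mature microRNA. The libraries measured the host transcripts, not the mature microRNAs. Of 8 genes with such a name, 7 were tested in KYSE180, where 3 fell and 0 rose, and 8 in KYSE150, where 2 fell and 0 rose, with the background shares given above. The mature sequences of the hosts called in a line, with those of MIR200CHG for its known part in epithelial cells, are shown from RefSeq on GRCh38.p14. Capitals mark the seed, bases 2 to 8, which pairs with target messenger RNAs. MIR210HG carries miR-210 (chr11:568112-568133, minus strand), MIR222HG carries miR-221 (chrX:45746180-45746202, minus strand) and miR-222 (chrX:45747036-45747056, minus strand), MIR503HG carries miR-503 (chrX:134546371-134546393, minus strand), and MIR4435-2HG carries miR-4435 (chr2:111321061-111321082, minus strand). MIR200CHG carries miR-200c (chr12:6963742-6963764, plus strand) and miR-141 (chr12:6964155-6964176, plus strand).
hsa-miR-210-3p: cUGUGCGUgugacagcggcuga
hsa-miR-221-3p: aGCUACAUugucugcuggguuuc
hsa-miR-222-3p: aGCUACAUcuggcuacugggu
hsa-miR-503-5p: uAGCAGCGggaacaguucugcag
hsa-miR-4435: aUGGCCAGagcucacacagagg
hsa-miR-200c-3p: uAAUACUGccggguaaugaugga
hsa-miR-141-3p: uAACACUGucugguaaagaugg
The miR-221 and miR-222 sequences share the seed GCUACAU and come from the same host, while miR-200c and miR-141 differ within the seed (AAUACUG and AACACUG).

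MIR210HG, host of the hypoxia-induced miR-210, fell in both lines. It was at 2.81, 3.25 and 2.97 FPKM in KYSE180 controls and 1.55, 1.37 and 1.61 with overexpression (-0.68, SE 0.12, adjusted p = 0.0238). In KYSE150 it was at 0.886, 0.887 and 0.905 FPKM in controls and 0.272, 0.157 and 0.123 with shCDCA7 (-0.68, SE 0.07, adjusted p = 0.00313), the latter resting on 5 to 10 reads. The groups did not overlap in either line. MIR222HG fell in KYSE180, from 1.57, 0.850 and 1.33 FPKM to 0.511, 0.421 and 0.643 (-0.55, SE 0.14, adjusted p = 0.0475), and in KYSE150 was at 1.34, 1.37 and 1.56 in controls and 3.07, 0.892 and 3.27 with shCDCA7, where replicate 2 lay below the controls and the others above them (adjusted p = 0.391).

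MIR503HG, the remaining host to fall in KYSE180, was named after its values were seen. It went from 0.937, 0.577 and 0.484 FPKM to 0.111, 0.166 and 0.226 (-0.50, SE 0.11, adjusted p = 0.0355). In KYSE150 it was at 2.48, 3.0 and 2.65 FPKM and at 3.05, 0.261 and 2.61 (adjusted p = 0.457), again with replicate 2 far below. MIR4435-2HG fell in KYSE150, from 5.87, 5.33 and 5.58 FPKM to 2.46, 3.56 and 2.73 (-0.76, SE 0.13, adjusted p = 0.0133). CYTOR holds the same miR-4435 sequence, and the RefSeq start regions of both genes share a long stretch. Reads of MIR4435-2HG and CYTOR may therefore be shared. MIR22HG was at 7.76 ± 1.17 and 5.26 ± 1.001 FPKM in KYSE180 (adjusted p = 0.0935) and at 3.41 ± 0.516 and 2.61 ± 0.764 in KYSE150 (adjusted p = 0.295). MIR200CHG was at 3.49 ± 0.307 and 3.88 ± 1.69 FPKM in KYSE180 (adjusted p = 0.864), and at 6.07 ± 0.401 and 4.92 ± 2.89 in KYSE150 (adjusted p = 0.507). In MIR222HG, MIR503HG and MIR200CHG the shCDCA7 replicate 2 values, 0.892, 0.261 and 1.67 FPKM, were the lowest of their line.

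By position, 12 genes of the set hold at least 1 hairpin on their own strand, with 28 mature sequences in RefSeq. Of these genes, 10 were tested in KYSE180, where 3 fell and 0 rose, and 11 in KYSE150, where 2 fell and 0 rose. AL158152.2, which spans let-7a-1, let-7f-1 and let-7d, was too thinly read to be tested, with 3 to 5 reads per library in KYSE180 controls and 9 to 15 with overexpression, and 1 to 8 and 7 to 14 in KYSE150. It was named after its values were seen, and the sequences of let-7a, let-7f and let-7d share the seed GAGGUAG.

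Other functional lists had few genes in the set. The list of lincRNAs that respond to p53 held TP53TG1 and PVT1, and the list for TGF-β and the mesenchymal transition held UCA1 and CYTOR, with 0 of 2 called in either line for each list by limma. At an unadjusted p under 0.05 there was 1, UCA1 in KYSE180. TP53TG1 was at 4.24 ± 1.11 and 5.75 ± 0.472 FPKM in KYSE180 and 6.90 ± 0.351 and 8.32 ± 1.60 in KYSE150. CYTOR, a cytoskeleton-linked lincRNA, was at 0.234 ± 0.0846 and 0.354 ± 0.0160 FPKM in KYSE180 and 2.01 ± 0.142 and 1.94 ± 0.301 in KYSE150, and UCA1 was at 0.280 ± 0.0549 and 0.105 ± 0.0607, and at 6.02 ± 0.303 and 5.04 ± 0.327. Reads of CYTOR may be shared with MIR4435-2HG, as given above. PVT1, a neighbour of MYC, was at 2.96 ± 0.134 and 2.95 ± 0.512 FPKM in KYSE180 and at 1.46 ± 0.167 and 1.81 ± 0.702 in KYSE150. CRNDE, on the genome stability list with NORAD, was at 3.30 ± 0.569 and 3.17 ± 0.177, and at 3.97 ± 0.289 and 4.6 ± 1.52. Lists of imprinted lincRNAs and of the X-inactivation centre had 0 genes in the set. Of 25 genes named as antisense or divergent transcripts, 24 were tested in each line: 3 rose and 1 fell in KYSE180, and 1 rose and 4 fell in KYSE150. That is 16.7% beside 9.08% of all genes, and 20.8% beside 19.9%. FOXD2-AS1, which is divergent to FOXD2, was among the latter, going from 10.5, 10.3 and 9.01 FPKM to 6.45, 3.79 and 5.67 (-0.82, SE 0.18, adjusted p = 0.0260).

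Position beside protein-coding genes was taken from GENCODE 29. In the set, 63 genes were divergent, starting within 2 kb of a protein-coding start on the other strand, 40 were tandem, starting within 10 kb past the end of a protein-coding gene on its strand, 42 overlapped one on the other strand and 16 on the same strand, and 165 had no such neighbour. In KYSE150, 12 of 59 tested divergent genes fell and 1 rose, with a median change of -0.11, and 7 of 31 tandem genes fell and 3 rose, with a median of -0.08. Of 34 genes overlapping on the other strand 8 fell and 2 rose, with a median of -0.13, and of 13 on the same strand 1 fell and 1 rose, with a median of -0.07. Genes in the remaining class had 12 falls and 8 rises among 121, with a median of 0.00. Over all tested genes in that line 10.0% rose and 9.86% fell. In KYSE180, 4 of 60 divergent genes rose and 3 fell, 11.7% in all and near the 9.08% of all genes, and 4 of 33 tandem genes rose and 5 fell, 27.3%. In KYSE180, 20 of 153 tested members that overlap no other gene were called (13.1%), beside 24 of 126 that overlap another gene. The former had 12 rises and 8 falls (5.23% fell), the latter 11 rises and 13 falls (10.3% fell). In KYSE150 the shares called were closer, 20.4% without and 22.3% with such an overlap. Whether reads shared with another gene play a part in the KYSE180 difference was not tested.

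Divergent genes and their partners showed little relation. Across pairs in which both were tested, the changes had a Pearson r of 0.0864 (60 pairs) in KYSE180 and 0.0733 (59 pairs) in KYSE150, as a description across genes that share libraries. In tandem pairs r was 0.235 (29 pairs) and 0.426 (27 pairs). In the remaining class, paired with the nearest protein-coding gene, it was 0.239 (105 pairs) and 0.261 (82 pairs). For overlaps on the other strand r was 0.452 (28 pairs) and -0.0275 (28 pairs), and on the same strand 0.242 (12 pairs) and -0.171 (9 pairs). LINC01521 and PATZ1 moved the same way in KYSE150, PATZ1 going from 12.2 ± 0.385 to 9.34 ± 0.654 FPKM (adjusted p = 0.0421), as did AC125807.2 and TEAD4 (26.1 ± 0.366 to 18.7 ± 1.75, adjusted p = 0.0214). FAM207A beside LINC01547 was at 18.1 ± 5.08 and 12 ± 4.11 FPKM in KYSE180 and at 33.6 ± 1.84 and 21.9 ± 11.7 in KYSE150, and CCDC84 beside AP003392.4 at 2.92 ± 0.608 and 2.89 ± 0.152, and at 5.5 ± 0.276 and 4.84 ± 0.232. FAM207A and CCDC84 passed the test in neither line.

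Factors that stop or degrade non-coding transcripts were examined from a list of 45 measured genes. In KYSE180, 1 rose and 4 fell, 11.1% beside 9.08% of all genes, and in KYSE150, 5 rose and 8 fell, 28.9% beside 19.9%. ZC3H4, whose protein ends transcription of non-coding RNA early as part of the Restrictor complex, was at 12.8, 11 and 11.1 FPKM in KYSE180 controls and 2.5, 2.69 and 2.32 with overexpression (-1.85, SE 0.12, adjusted p = 0.00206). In KYSE150 it was at 5.13, 6.51 and 5.72 FPKM in controls and 1.40, 1.44 and 1.66 with shCDCA7 (-1.44, SE 0.12, adjusted p = 0.00244). PPP1R10, which encodes a targeting subunit of phosphatase PP1 in transcription termination, fell from 14.5 ± 3.91 to 5.40 ± 0.921 FPKM (adjusted p = 0.0183) and from 7.61 ± 0.646 to 1.89 ± 0.182 (adjusted p = 0.00181). DGCR8, the partner of DROSHA in cutting microRNA hairpins, fell from 5.70 ± 0.502 to 2.66 ± 0.321 FPKM (adjusted p = 0.0176) and from 4.01 ± 0.437 to 1.40 ± 0.182 (adjusted p = 0.00421), and SRRT, which links the cap to termination, from 38.6 ± 5.60 to 25.3 ± 2.88 (adjusted p = 0.0452) and from 28.2 ± 1.12 to 19.97 ± 1.68 (adjusted p = 0.0184). INTS5 of the Integrator complex fell in KYSE150 from 9.68 ± 0.521 to 2.67 ± 0.155 FPKM (adjusted p = 0.00166). In the same line ZFC3H1, an exosome adaptor, rose from 6.61 ± 0.368 to 13.1 ± 2.83 (adjusted p = 0.0132), DIS3, an exosome nuclease, from 6.94 ± 0.167 to 12.1 ± 2.27 (adjusted p = 0.0183) and RBM7, also an adaptor, from 3.68 ± 0.177 to 6.17 ± 1.30 (adjusted p = 0.0361). Of 13 exosome genes in KYSE150, 2 rose and 2 fell. The falls were in EXOSC2, from 18.8 ± 0.180 to 10.01 ± 0.990 FPKM (adjusted p = 0.00478), and EXOSC4, from 22.5 ± 1.12 to 12.5 ± 1.28 (adjusted p = 0.00630), both named after their values were seen. EXOSC7 rose in KYSE180 from 6.38 ± 0.860 to 11.7 ± 2.99 (adjusted p = 0.0468). Their part in the lincRNA changes was not tested.

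Promoter sequence, 250 bases before to 50 after the start, was listed by RefSeq for 87 genes of the set. The start is that of RefSeq, and for some genes it lies far from the GENCODE start. It was 284876 bases away for LNCAROD, 28215 for MIR4435-2HG, 27852 for LINP1, 7052 for LINC01667 and 4941 for LINC02542. Such windows may not be promoters of the measured genes. The promoters were searched for 4 motifs on both strands. The AP-1 site TGANTCA was in 9 of 87 (10.3%, beside 7.76% of 27305 promoters of that length), the E-box CACGTG in 7 (8.05% beside 7.43%), the interferon-type element GAAA, any 2 bases, GAAA in 5 (5.75% beside 3.65%), and the SMAD palindrome GTCTAGAC in 0 (0% beside 0.201%). Of the AP-1 matches, those of MIR4435-2HG and LINC02542 lie in windows far from the GENCODE start. MIR4435-2HG and CYTOR share the sequence around the AP-1 site. The median promoter of the set held 18 CG dinucleotides, beside 14 over all promoters, and that of divergent genes 34. Promoters are shown for all 5 of the genes called in both lines that RefSeq lists, as these moved together, and for OLMALINC: LINC01547 (chr21:44939864-44940163, minus strand, 42 CG dinucleotides), BAIAP2-DT (chr17:81034670-81034969, minus strand, 33), FAM111A-DT (chr11:59142759-59143058, minus strand, 25), LINC01315 (chr22:42369159-42369458, minus strand, 28), MIR210HG (chr11:568408-568707, minus strand, 44) and OLMALINC (chr10:100373326-100373625, plus strand, 16), all GRCh38.p14. Capitals mark a motif match, the interferon-type element in FAM111A-DT, the E-box in LINC01315 and the AP-1 site in OLMALINC. The RefSeq start lies 162 bases from the GENCODE start for BAIAP2-DT and 207 for FAM111A-DT.
LINC01547: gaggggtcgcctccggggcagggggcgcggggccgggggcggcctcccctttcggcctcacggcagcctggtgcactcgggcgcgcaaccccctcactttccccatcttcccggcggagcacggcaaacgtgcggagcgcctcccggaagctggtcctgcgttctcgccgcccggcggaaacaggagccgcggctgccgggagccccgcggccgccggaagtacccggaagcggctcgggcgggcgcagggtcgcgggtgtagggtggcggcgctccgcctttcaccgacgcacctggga
BAIAP2-DT: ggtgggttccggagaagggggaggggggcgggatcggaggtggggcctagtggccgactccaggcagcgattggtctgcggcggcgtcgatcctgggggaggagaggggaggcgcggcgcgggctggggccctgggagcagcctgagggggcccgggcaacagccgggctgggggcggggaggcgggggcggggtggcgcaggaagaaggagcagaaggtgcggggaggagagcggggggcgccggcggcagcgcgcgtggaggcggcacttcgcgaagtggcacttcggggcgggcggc
FAM111A-DT: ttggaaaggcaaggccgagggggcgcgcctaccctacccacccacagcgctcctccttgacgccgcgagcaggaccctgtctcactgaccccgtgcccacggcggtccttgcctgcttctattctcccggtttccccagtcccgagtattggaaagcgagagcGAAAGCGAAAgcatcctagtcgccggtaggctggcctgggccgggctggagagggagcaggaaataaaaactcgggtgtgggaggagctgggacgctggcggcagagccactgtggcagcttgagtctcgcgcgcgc
LINC01315: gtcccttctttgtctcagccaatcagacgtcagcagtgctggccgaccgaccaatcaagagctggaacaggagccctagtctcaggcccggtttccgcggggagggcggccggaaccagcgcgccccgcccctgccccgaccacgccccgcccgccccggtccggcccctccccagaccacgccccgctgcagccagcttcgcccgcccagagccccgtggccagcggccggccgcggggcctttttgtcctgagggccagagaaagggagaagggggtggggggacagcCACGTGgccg
MIR210HG: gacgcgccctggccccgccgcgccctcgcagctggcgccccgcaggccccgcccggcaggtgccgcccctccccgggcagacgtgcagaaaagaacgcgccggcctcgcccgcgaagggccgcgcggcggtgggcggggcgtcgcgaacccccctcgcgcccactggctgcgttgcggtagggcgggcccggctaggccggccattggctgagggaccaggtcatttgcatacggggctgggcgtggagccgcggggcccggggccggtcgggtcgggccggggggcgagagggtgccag
OLMALINC: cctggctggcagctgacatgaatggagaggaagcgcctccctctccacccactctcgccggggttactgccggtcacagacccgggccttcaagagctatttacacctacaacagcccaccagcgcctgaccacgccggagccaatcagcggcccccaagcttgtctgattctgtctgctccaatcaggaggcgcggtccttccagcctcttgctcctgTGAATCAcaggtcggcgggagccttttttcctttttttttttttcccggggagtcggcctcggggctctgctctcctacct
A match describes letters in this window and not a bound site. LINC01547, BAIAP2-DT and MIR210HG, which fell in both lines, held none of the 4 motifs in these windows.

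Accounting for all 326 genes, 83 were called in at least 1 line and 243 in neither, of which 9 were too weakly read to be tested in either line.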

How the data were processed

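RNA was measured in 12 libraries by sequencing. Groups came from the sample labels, and each column of values was matched to 1 label. The tools listed in the submitters' processing notes are HISAT2 2.0.5, an aligner, and DESeq2 1.20.0, and the build listed is mm10. That is a mouse build, while the identifiers and positions of all 58735 genes match GENCODE 29 on human GRCh38, used here. The counting tool, and whether strand was used, are not given in the sources used here. The deposited values are FPKM. Multiplied by gene length and divided by what 1 read is worth, 100.0% of them are whole (tolerance 0.01), so read numbers were recovered. FPKM is relative to depth, and short genes rest on few reads. No molecular identifiers are described, so read numbers bear on counting error only.

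A gene was tested if 3 or more libraries held 10 reads, scaled to the median library, and the libraries together held 15. Tests used limma 3.58.1 in R 4.3.3 (limma-trend on log2(FPKM + 1)) in each line, two-sided, with p-values adjusted by Benjamini-Hochberg over all tested genes and called under 0.05. The added 1 understates changes of weak genes. Differences between lines came from 1 fit of 12 libraries. Members, lists and tests were chosen with earlier results of these data known. The fits of each line were also run on simulated reads with known changes, and no result given here rests on them. Alternatives were other scalings, an added 0.1, other filters, limma-voom on recovered reads, 1 joint fit, the replicate number as a block, and each library left out in turn; removal of the GC trend and the restriction to non-overlapping genes were chosen after seeing the data.

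Genes are named by a rule: the 10 highest; per line up to 12 per direction by change among called genes with non-overlapping groups; up to 3 per role list; 3 on each side of the level minimum; those called in both lines; the 6 largest per direction for the difference and between controls; neighbours of divergent and tandem genes; up to 4 termination and decay factors per direction and line; and genes of the study's title.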

Additional observations from a re-analysis of the deposited data

Results flagged for a closer look

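The change with CDCA7 overexpression in KYSE180 and the change with shCDCA7 in KYSE150 differed in 22 lincRNAs of the set, by limma's test of the difference itself. Of these, 13 were too weakly read in 1 line to be tested there. Their difference rests mainly on the change in the other line, and the weak values of the untested line enter it too. AC121764.1 and AC132807.2 were at 0 in KYSE150, and SFTA1P, LINC00662 and LINC02434 were near 0 in KYSE180. On the log2(FPKM + 1) scale the difference was 2.81 for AC007389.5, 1.54 for BLACAT1, 1.501 for LINC01843, 1.41 for AC132807.2, 1.33 for OLMALINC and 1.26 for LINC01503. It was -1.98 for AC121764.1, -1.42 for LINC02434, -0.70 for SFTA1P and -0.67 for LINC00662. AC007389.5, BLACAT1, OLMALINC and LINC01503 passed in all 19 alternatives run, LINC01843 in 5, AC121764.1 in 9, and LINC02434 and SFTA1P in 8 each. The cell line and the manipulation differ together here and cannot be told apart.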

How the results depend on the processing

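Over single genes, 1418 alternative values kept direction and side of the threshold, 492 kept direction but no longer passed, 18 newly passed and 11 reversed. The KYSE180 count of 44 became 0 without a filter on low reads, when 3 of all 31719 genes were called, 1 at an adjusted p under 0.01, and 23 for genes from 2 FPKM. The KYSE150 count of 55 became 28 (5.36% of all genes without the filter), 20 and 29 under the same settings. The count of 22 for the difference became 11 with limma-voom, 14 without the filter (1.52% of all genes) and 7 at an adjusted p under 0.01, and the 93 for the opposite-sign contrast became 48 at that threshold. With 1 library left out, the counts ranged from 0 to 61 in KYSE180, 17 to 135 in KYSE150 and 12 to 38 for the difference. Calls over the whole table moved with the left-out library. The cause of the other shifts was not tested.

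Reversed values belonged to comparisons in which the gene was not called, apart from SFTA1P, whose difference between manipulations was 0.345 with limma-voom. MIR200CHG in KYSE180 was at -0.029 when scaled to library totals and ranged from -0.197 to 0.227 over left-out libraries. Over the same omissions SCD ranged from -0.0253 to 0.437 and CCDC84 from -0.0864 to 0.119 in KYSE180, CCDC84 being 0.0023 with the GC trend removed. In KYSE150, OLMALINC ranged from -0.155 to 0.0266, MIR503HG from -0.796 to 0.0458 and MIR200CHG from -0.724 to 0.0878.

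Same-numbered libraries did not deviate together, with correlations from -0.0761 to 0.0662 in KYSE180 and from -0.0744 to 0.0149 in KYSE150. With the replicate number as a block, 17 lincRNAs were called in KYSE180 and 29 in KYSE150, when 603 and 1001 genes of the whole table were.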
